A study of Mus musculus with 72 samples.

Results

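The levels of 10 chemokine genes were followed in mouse melanoma cells that were given gastrin-releasing peptide (GRP), a peptide ligand of the G-protein-coupled receptor GRPR. The genes were Cxcl1, Cxcl2, Cxcl5, Cxcl10, Cxcl12, Cxcl16, Ccl2, Ccl7, Ccl20 and Cx3cl1, chosen by name and matched to the deposited gene identifiers, which gave 10 members among 50600 counted genes. RNA was sequenced in 72 libraries from 6 melanoma cell lines, each line receiving 4 treatments in 3 replicates. Each library held between 19512882 and 46862053 counted reads. Levels are given in CPM, the counts of a gene relative to the library size after TMM scaling over all libraries, and levels of different genes were set against each other only in the deposited TPM, which account for transcript length.

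Chemokines are small secreted proteins that direct the movement of leukocytes through G-protein-coupled receptors. CXCL1, CXCL2 and CXCL5 act on CXCR2 of neutrophils, CCL2 and CCL7 on CCR2 of monocytes, CCL20 on CCR6, CXCL10 on CXCR3 of activated T cells, and CXCL12 on CXCR4, whereas CX3CL1 and CXCL16 are made as membrane-anchored proteins that can be shed by proteases. Many of the genes are switched on rapidly by NF-kB, and CXCL10 is also a classical target of interferon signalling.

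All lines carried Tyr::NRASQ61K, an oncogenic NRAS driven in melanocytes by the tyrosinase promoter. Lines 1057 and 1064 came from females (Tyr::NRASQ61K/°, Cdkn2a-/-, Tyr::CreA/°, Cdh1dF/dF) and express their own Grpr. The male 1181 line (Tyr::NRASQ61K/°, Cdkn2a-/-, Cdh1dF/dF, no Cre) and the female 1014 line (Tyr::NRASQ61K/°) carried either CMV::Grpr/tGFP (1181-Grpr, 1014-Grpr) or CMV::tGFP alone (1181-Ctrl, 1014-Ctrl), so that in these lines the receptor was driven by a viral promoter in plasmid-transfected, drug-selected cells. The 1181 genotype is given as labelled, and without a Cre listed the labels alone do not settle whether Cdh1 was deleted. The study names 1181 among its E-cadherin-positive cells. After 18 h of starvation, cells were kept for 4 h in 0.5% serum with DMSO (mock), 10 nM GRP, 1 µM RC-3095 (RC, an antagonist of GRPR), or GRP and RC together. The labels number the replicates but do not say whether they were separate cultures, so that p-values measure the spread between these libraries.

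All 8 melanocyte markers examined were above 3 counts in the mock libraries of every line, but some levels differed widely. Over all treatments Tyrp1 was 0.838 to 4.18 CPM in 1181-Ctrl and at least 1220 CPM in 1181-Grpr. Dct was 163 to 339 against at least 5210 CPM, and Mlana 61.2 to 142 against at least 218 CPM. Between these 2 lines the ranges of Mitf, Tyr, Pmel, Sox10 and Pax3 overlapped. Of the 10 leukocyte markers, 3 or 4 were above 3 counts in any mock library of a line, summing to 3.88 to 46.2 CPM. The myeloid Lyz2 reached 51.7 CPM and Cd68 32.7 CPM, both in 1181-Ctrl, while Csf3r, Adgre1 or both were at 0 in the mock libraries of every line. Of 8 stromal and endothelial markers 3 to 5 were above 3 counts, with Cdh5 at 2.93 to 6.58 CPM in 1057 and 1064 and at most 0.172 CPM elsewhere, and Col1a1 up to 18.1 CPM in 1064. Of 5 epithelial markers 1 was above 3 counts in mock 1181-Ctrl and none in the other mock groups. Their part in the chemokine levels was not tested. In bulk RNA, fewer cells of a type and less RNA per cell cannot be told apart. Leaving aside 1 library each of 1181-Grpr and 1014-Ctrl, Grpr was 187 to 275 CPM in 1057 and 472 to 1280 CPM in 1064. It was 107 to 620 CPM in 1014-Grpr and only 8.48 to 79.9 CPM in 1181-Grpr, the lowest of the lines said to express it. In 1181-Ctrl and 1014-Ctrl it was at most 0.0915 CPM. These ranges span all treatments, between which Grpr itself differed. Mock libraries had 273 to 275 CPM in 1057, 786 to 1280 in 1064, 107 to 141 in 1014-Grpr and 8.48 to 17.7 in 1181-Grpr. Libraries with GRP had 197 to 210, 472 to 519, 399 to 620 and 19.1 to 79.9 CPM in the same order. The part of the receptor level in differences between lines was not tested. The library labelled 1014-Ctrl mock replicate 2 had 48.1 CPM of Grpr and 64.2 CPM of the Y-linked Ddx3y, although the other 1014 libraries had no Ddx3y. The library labelled 1181-Grpr GRP+RC replicate 2 had neither transcript, unlike the other 1181-Grpr libraries. Both go against their labels. In Grpr and Ddx3y each resembled the line of the other, and whether they were exchanged was not tested. The marker ranges above include both, and chemokine results that rest on them are given with and without them.

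The members differed widely in abundance. Cx3cl1 and Cxcl10 were counted in all 72 libraries, Cxcl12 in 48, Cxcl1 in 54, Cxcl5 in 49 and Ccl2 in 41. Cxcl2 and Ccl20 exceeded 3 counts in 5 and 4 libraries, Ccl7 in 3, and Cxcl16 in none, with a total of 6 reads in the whole series. Exon bases of Cxcl10 (5.91%) and Cxcl16 (18.27%) are overlapped by a gene on the other strand. Per length, the highest group mean was that of Cxcl12 with 92.1 TPM in mock 1181-Ctrl, followed by Cxcl10 with 32.7 TPM (1014-Grpr with GRP), Cx3cl1 with 31.9 TPM and Ccl2 with 26.5 TPM (both 1064 with GRP). The filter on low counts left 5 members to test in 1057 and in 1064 (Ccl2, Cx3cl1, Cxcl5, Cxcl10, Cxcl12), 4 in 1181-Grpr and 1181-Ctrl (Cxcl1, Cxcl10, Cxcl12, Cx3cl1), 3 in 1014-Grpr (Cxcl1, Cxcl10, Cx3cl1) and 2 in 1014-Ctrl (Cxcl10, Cx3cl1). For Cxcl2, Cxcl16, Ccl7 and Ccl20 only counts are given, except where a fit without the filter is named.

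**Figure D1:**
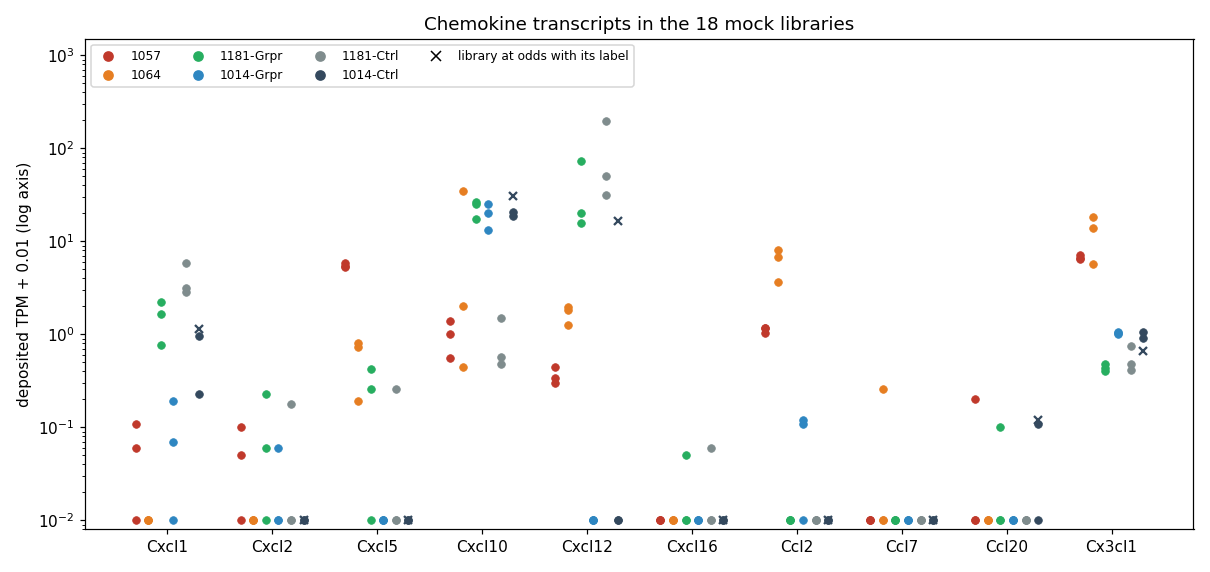
Deposited TPM (with 0.01 added, log axis) of the 10 chemokine genes in the 18 mock libraries, 1 point per library, coloured by line. Cxcl12 was highest in the 1181 lines and listed at 0 in 1014-Grpr, Cxcl5 was highest in 1057, and Ccl2 and Cx3cl1 were highest in 1064. The cross marks the library labelled 1014-Ctrl mock replicate 2.

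The resting cells of the 6 lines had different chemokine profiles before any GRP was added. Cx3cl1, the fractalkine gene, was 16.4 CPM on average in mock 1064 and 8.80 CPM in mock 1057, and 1.11 CPM or less on average in each of the other 4 lines. Ccl2, the monocyte attractant also known as MCP-1, followed the same order, with 1.28, 2.99 and 2.67 CPM in 1064, 0.399, 0.433 and 0.429 CPM in 1057, and no more than 1 count in any mock library of the other lines. In both cases the libraries of 1064 and 1057 lay above all those of the other lines, although those of Cx3cl1 overlapped between 1064 and 1057. Cxcl5 was instead highest in 1057 (3.38, 3.59 and 3.28 CPM, against 0.413, 0.107 and 0.520 CPM in 1064). Cxcl1 was highest in 1181-Ctrl (1.47, 2.87 and 1.37 CPM) and at 0 counts in each of the 12 libraries of 1064.

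In edgeR's quasi-likelihood test over the 18 mock libraries, genes were called if their p, adjusted by the Benjamini-Hochberg procedure, was below 0.05 and their log2 fold change was beyond 1 in either direction. Between 1057 and 1064, 3 of the 6 members tested were called, where 25% of all genes tested were called. Cxcl5 was higher in 1057 by a log2 fold change of 3.23 (SE 0.688, adjusted p = 0.00243), Ccl2 was lower by -2.44 (SE 0.412, adjusted p = 0.00103), and Cxcl10 was lower by -3.56 (SE 1.01, adjusted p = 0.00897). The Cxcl10 difference rests on 1 library: without replicate 1 the log2 fold change was -0.45 (adjusted p = 0.633). Of 10 interferon-response genes, 5 were also lower in 1057 and none higher, and their part in the Cxcl10 difference was not tested. For Cx3cl1 the neighbours 1064 and 1057 differed by 0.89 on the log2 scale (adjusted p = 0.0382), under the fold threshold, and 1057 stood above 1014-Grpr, the next line, by 2.96 (SE 0.371, adjusted p = 8.1e-06). The 1014-Grpr, 1014-Ctrl, 1181-Ctrl and 1181-Grpr lines followed without a difference between neighbours that passed the threshold (adjusted p = 0.866, 0.146 and 0.739).

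Cxcl12 (chr6:117168535-117181367, plus strand, GRCm38), the gene of the CXCR4 ligand, ranged from the highest group mean of any member to 0 between lines. All 12 libraries of 1014-Grpr and 11 of 12 of 1014-Ctrl had 0 counts of it, and the exception was the library labelled 1014-Ctrl mock replicate 2, with 896 counts. A count of 0 allows up to 3 counts, which is at most 0.154 CPM of the raw total in these data. In 1181-Ctrl the mock libraries had 401, 109 and 66.1 CPM, in 1181-Grpr 154, 35.2 and 45.0 CPM, in 1064 4.91, 3.31 and 5.13 CPM, and in 1057 0.799, 0.897 and 1.16 CPM. The 1181 lines thus held more Cxcl12 RNA than any other line in every library with a fitting label. With the 18 mock libraries no difference between neighbours in this order passed the test (adjusted p from 0.165 to 0.615). Without the library labelled 1014-Ctrl mock replicate 2, 1181-Grpr stood above 1064 by 4.14 on the log2 scale (adjusted p = 0.000435) and 1064 above 1057 by 2.22 (adjusted p = 0.0382), while 1181-Ctrl and 1181-Grpr did not differ (1.29, adjusted p = 0.203).

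The spread of Cxcl12 in the 1181 lines followed the replicate number and not the treatment. In 1181-Ctrl the 4 libraries numbered 1 had 345 to 401 CPM, those numbered 2 had 98.1 to 128 CPM, and those numbered 3 had 53.6 to 66.1 CPM. In 1181-Grpr the libraries numbered 1 had 149 to 163 CPM, and the others with a fitting label had 34.0 to 45.0 CPM. In a fit that blocked on the replicate number, the GRP effect on Cxcl12 in 1181-Ctrl was -0.07 on the log2 scale (SE 0.0683, adjusted p = 1), and in 1181-Grpr, without the library at odds with its label, it was 0.00 (SE 0.0441, adjusted p = 0.992).

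**Figure D2:**
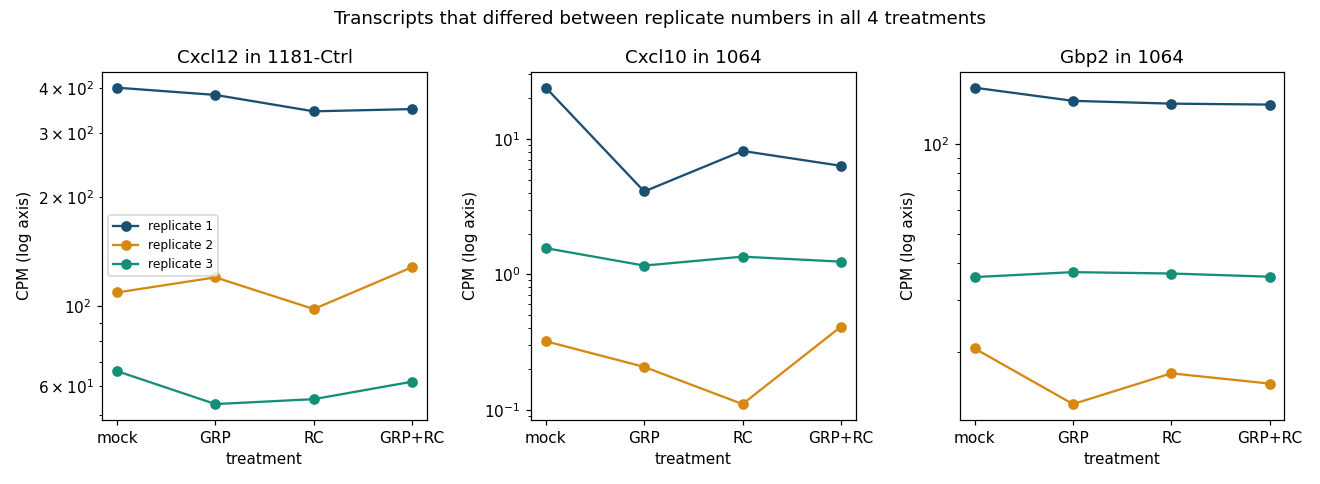
CPM (log axis) of Cxcl12 in 1181-Ctrl and of Cxcl10 and the interferon-induced Gbp2 in 1064, by treatment, with a line for each replicate number. In all 3 panels the libraries numbered 1 lay above the others in every treatment.

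Cxcl10 (chr5:92346638-92348889, minus strand), which codes for an attractant of T cells, was present at similar levels in 3 of the 4 transfected lines and was low in the fourth. Its mock levels were 14.8, 16.1 and 10.4 CPM in 1181-Grpr and 0.849, 0.336 and 0.274 CPM in 1181-Ctrl, 2 derivatives of the same parental line, without overlap. The log2 fold change was 4.82 (SE 1.09, adjusted p = 0.00961), and Cxcl10 was the 1 member called of 6 tested, where 6.32% of all genes tested were called. This call was lost without replicate 3 (4.73, adjusted p = 0.169) and held with the replicate block (5.03, adjusted p = 0.00695). Between 1014-Grpr and 1014-Ctrl none of the 6 members was called, where 0.0846% of genes were, and 0 also without the library at odds with its label (DESeq2 called 1 with it). Between 1181-Ctrl and 1014-Ctrl, where 16.4% of genes were called, Cxcl1 was higher in 1181-Ctrl (2.27, SE 0.607, adjusted p = 0.0121) and Cxcl10 lower (-4.89, SE 1.09, adjusted p = 0.00351), beside 8 of the 10 interferon-response genes. The first call was lost without replicate 1 or 3 (adjusted p = 0.0762 and 0.0745) and the second without replicate 3 (adjusted p = 0.0826). Without the library at odds with its label, Cxcl1 (2.64, adjusted p = 0.00575) and Cxcl10 (-4.65, adjusted p = 0.00306) were called again and Cxcl12 was called higher in 1181-Ctrl as well (adjusted p = 3.04e-05), with no fold given because the 1014-Ctrl libraries were then at 0, and 26.1% of genes were called.

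Of the 10 interferon-response genes examined, 8 were also higher in 1181-Grpr than in 1181-Ctrl and none lower, with a median log2 fold change of 3.24 over the 10. Among them, Ifit1 was 28.9 ± 5.47 CPM against 0.102 ± 0.0313 CPM (SD, n = 3 each) and Isg15 9.02 ± 2.82 against 0.0407 ± 0.0466 CPM. Ccl5, a T-cell attractant outside the 10 members that was picked after its values were seen, was higher by 6.39 (SE 0.38, adjusted p = 1.63e-07). Their part in the Cxcl10 difference was not tested.

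In 1064, Cxcl10 varied between replicates more than any treatment moved it. The mock libraries had 23.9, 0.320 and 1.56 CPM, from 579, 6 and 45 counts. Over the 4 treatments the libraries numbered 1 had 4.09 to 23.9 CPM, those numbered 3 had 1.16 to 1.56 CPM and those numbered 2 had 0.11 to 0.41 CPM. The interferon-induced gene Gbp2, picked after its values were seen, kept the same order, with 136 to 155, 35.8 to 37.2 and 13.4 to 20.6 CPM.

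The promoter windows of Cxcl10 and Cxcl12 are shown because the levels of these genes differed between resting lines. RefSeq windows (GRCm38.p6) were found for 6 of the 10 members (Ccl20, Cxcl1, Cxcl2, Cxcl10, Cxcl12, Cx3cl1). The 250 bases before each RefSeq start were searched on both strands for AP-1 (TGANTCA), NF-kB and cAMP response element (TGACGTCA) motifs. NF-kB had 2 spellings, GGG, 3 bases of any kind and TTCC, and GGG, 2 bases of any kind and TTTCC. Every match of the second spelling is also a match of the first. Of 32851 such windows, 6.75% held AP-1, 4.65% the first NF-kB spelling, 1.41% the second and 1.55% the cAMP response element. Only bases before the first annotated exon are printed, 5′ to 3′ on the gene's strand, with matches in capitals. Cxcl10 (minus strand, chr5:92348890-92349139) held NF-kB matches at -159 and -104 and an AP-1 match at -74 relative to its start. Cxcl12 (plus strand, chr6:117168285-117168534) held none of these motifs.
Cxcl10: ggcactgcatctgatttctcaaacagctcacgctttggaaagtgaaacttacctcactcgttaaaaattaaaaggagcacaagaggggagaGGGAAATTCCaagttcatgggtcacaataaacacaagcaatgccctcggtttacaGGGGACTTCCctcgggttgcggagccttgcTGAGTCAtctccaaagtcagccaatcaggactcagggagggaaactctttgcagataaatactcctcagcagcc
Cxcl12: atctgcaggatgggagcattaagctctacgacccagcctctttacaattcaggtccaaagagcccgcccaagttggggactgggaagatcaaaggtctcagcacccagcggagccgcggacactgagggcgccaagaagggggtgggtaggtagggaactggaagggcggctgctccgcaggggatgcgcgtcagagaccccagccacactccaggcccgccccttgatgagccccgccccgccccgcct

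The next comparison asked which chemokines GRP changed within each line. GRP raised Ccl2 and Cx3cl1 and lowered Cxcl12 in 1057, raised Cx3cl1 and, from very low counts, Cxcl1 in 1014-Grpr, and, once the paired replicate numbers entered the fit, raised Ccl2 and Cx3cl1 and lowered Cxcl10 in 1064. That Cxcl10 fall was by far the largest in the first pair, and each pair was also lower than mock with RC alone. No member was called in 1181-Grpr or in the lines without receptor. Members called by edgeR's quasi-likelihood test, fitted per line on 12 libraries, numbered 3 of 5 in 1057, where 6.46% of all genes tested were called, 0 of 5 in 1064 (2.32%), and 2 of 3 in 1014-Grpr (4.01%). In 1181-Grpr, 1181-Ctrl and 1014-Ctrl edgeR called 0% of genes, and of their 4, 4 and 2 members tested none had an unadjusted p under 0.05 or was called by DESeq2. In 1064, Ccl2 and Cx3cl1 had an unadjusted p under 0.05 and DESeq2 called 1 member. The median log2 fold change of the members tested was 0.79 in 1057, -0.18 in 1064 and 1.58 in 1014-Grpr, and that of all genes tested was -0.01, -0.02 and -0.02. Cxcl1 in 1014-Grpr passed the filter through its GRP libraries, so that the count and median there are no more than a description.

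**Figure D3:**
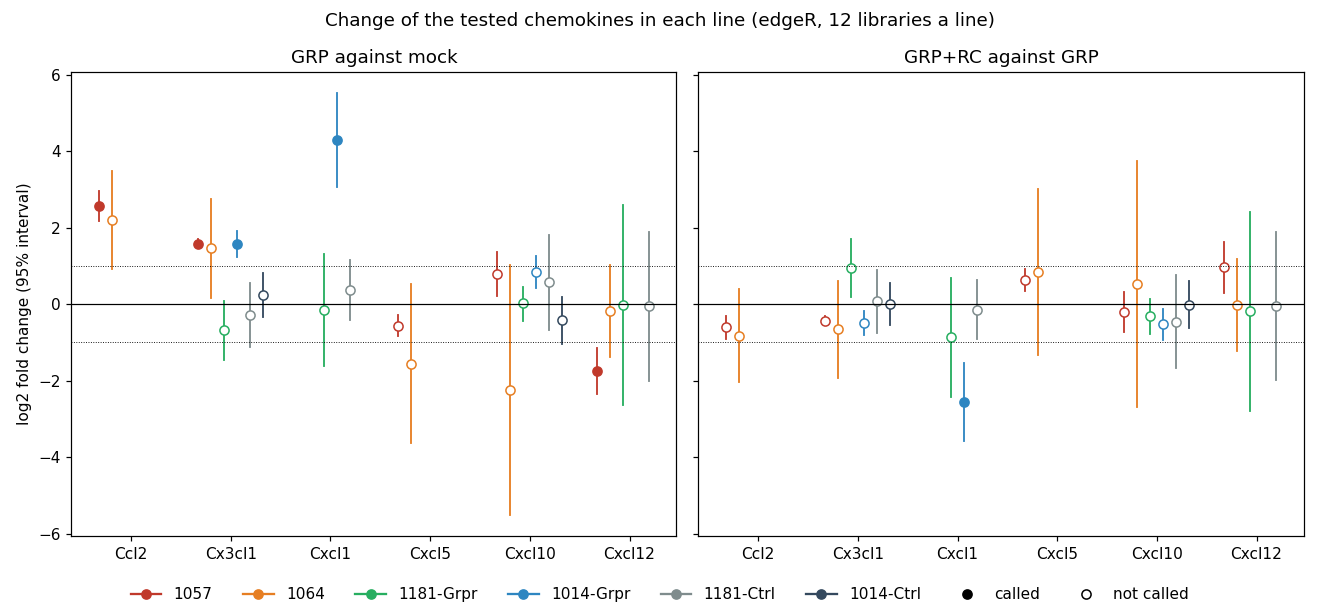
Log2 fold changes (points) with 95% intervals (bars) of GRP against mock, left, and of GRP+RC against GRP, right, for the members tested in each line. Filled points were called, and dotted lines mark the fold threshold. Ccl2 and Cx3cl1 in 1057 and Cxcl1 and Cx3cl1 in 1014-Grpr were called higher with GRP and Cxcl12 in 1057 lower. The right panel includes the library labelled 1181-Grpr GRP+RC replicate 2.

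Ccl2 (chr11:82035571-82037453, plus strand, GRCm38) was the member that rose most in 1057. Its levels were 0.399, 0.433 and 0.429 CPM in mock cells and 2.74, 2.13 and 2.57 CPM with GRP. Every GRP library lay far above every mock library, on 13 to 14 and 72 to 80 counts. The log2 fold change was 2.57 (SE 0.2, adjusted p = 4.03e-09), a 5.93-fold rise, and leaving out each replicate gave 2.45 to 2.70. In 1064 the mock libraries had 1.28, 2.99 and 2.67 CPM and the GRP libraries 18.7, 9.40 and 3.83 CPM. These groups did not overlap either, but replicate 3 rose far less than the others. The log2 fold change was 2.21 (SE 0.651, adjusted p = 0.0725), and with the replicate numbers, which paired the 1064 libraries, it was 1.99 (SE 0.442, adjusted p = 0.00442) and was called, as were 6.52% of all genes in that fit.

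In the transfected lines Ccl2 stayed near the floor. In 1014-Grpr it had 1, 1 and 0 counts in mock cells, 2, 5 and 4 with GRP, and 0 in all 6 libraries with RC or with both agents. The ratio of GRP to mock per counted read was 4.34 with a 95% exact interval of 0.947 to 40.3, which covers counting error only. In 1181-Grpr no library had more than 2 counts. Ccl7 (chr11:82045712-82047525, plus strand), the neighbouring gene that codes for another CCR2 ligand, was counted above 3 reads in 3 libraries, all of them 1064 with GRP. These had 9, 4 and 7 counts against 2 in the 3 mock libraries together. That ratio was 9.71 (95% exact interval 2.36 to 85.7), and without the filter on low counts its adjusted p was 0.196 and it was not called.

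**Figure D4:**
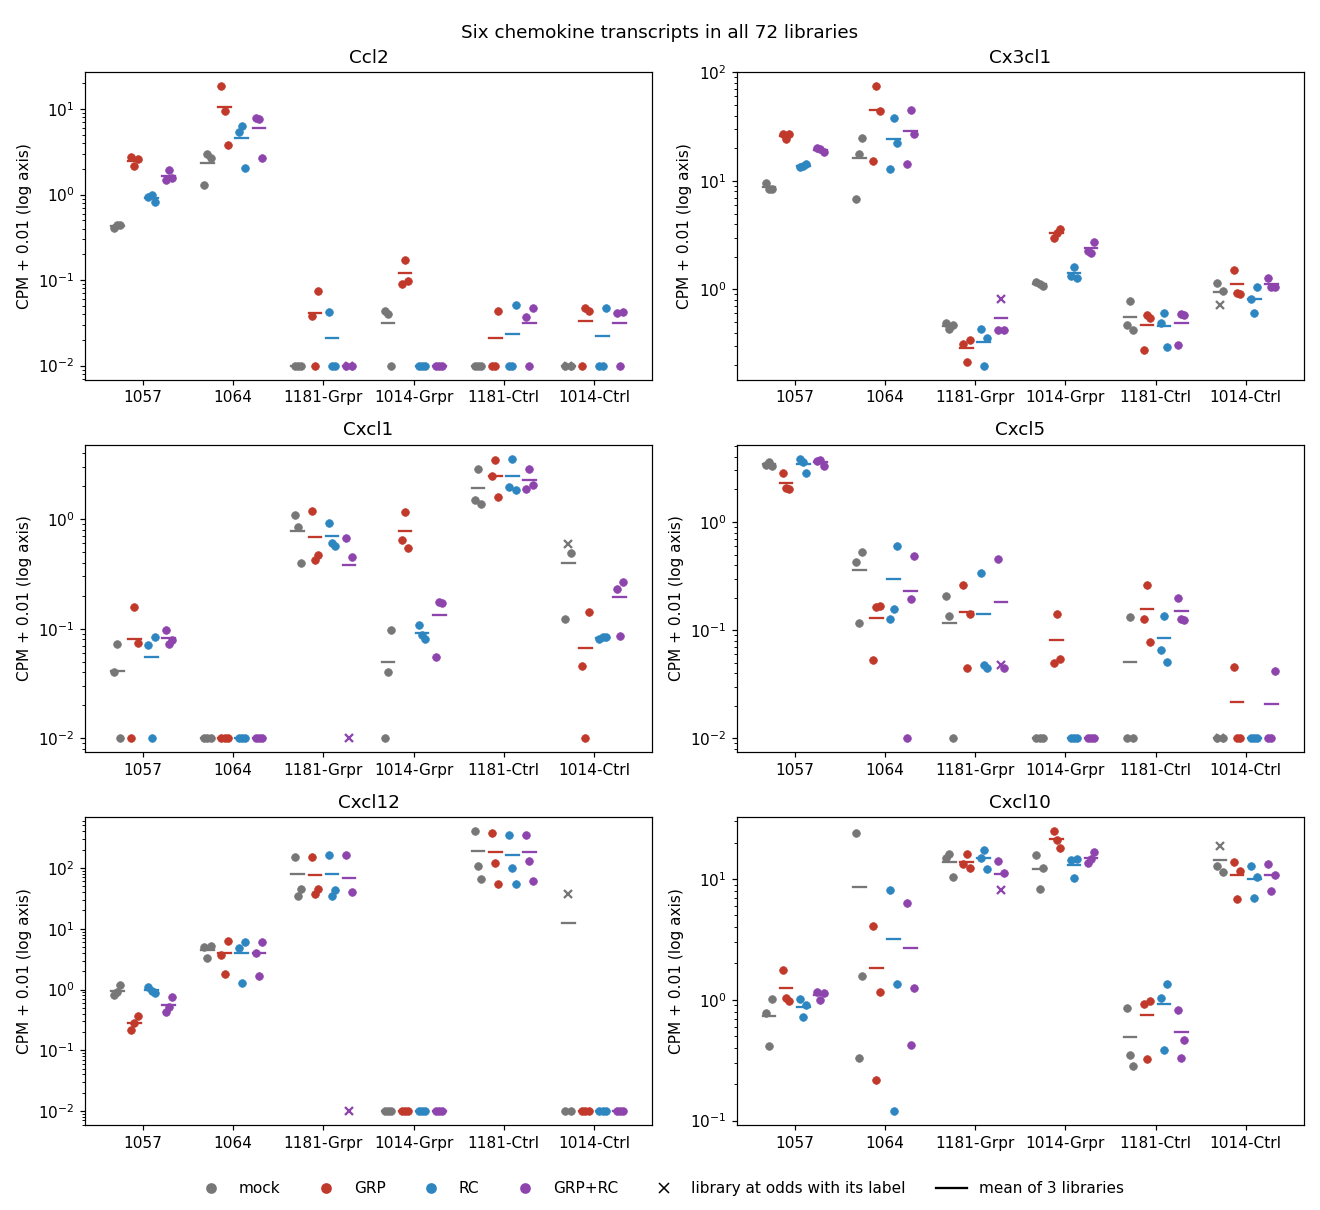
CPM (with 0.01 added, log axis) of 6 chemokine genes in all 72 libraries, 1 point per library and a bar at the mean of each group of 3, by line and coloured by treatment. Ccl2 and Cx3cl1 rose with GRP in 1057, Cx3cl1 and Cxcl1 rose in 1014-Grpr, and Cxcl12 was at 0 in 1014-Grpr. Crosses mark the 2 libraries at odds with their labels.

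Cx3cl1 (chr8:94772009-94782427, plus strand) was the only member called with GRP in both 1057 and 1014-Grpr. In 1057 it went from 9.59, 8.42 and 8.39 CPM to 26.9, 24.1 and 26.9 CPM, a log2 fold change of 1.58 (SE 0.0655, adjusted p = 4.82e-13). In 1014-Grpr it went from 1.15, 1.11 and 1.06 CPM to 2.99, 3.28 and 3.57 CPM, with the same log2 fold change of 1.58 (SE 0.171, adjusted p = 4.08e-05). The groups did not overlap in either line, while the level itself was several times lower in 1014-Grpr. In 1064 the pairs numbered 1, 2 and 3 rose from 6.81 to 15.3, from 17.6 to 75.1 and from 24.8 to 44.3 CPM. All 3 pairs rose, but the groups overlapped. The unpaired log2 fold change of 1.46 did not pass (SE 0.659, adjusted p = 0.224), and with the replicate block it was 1.33 (SE 0.232, adjusted p = 0.00116) and was called.

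In 1181-Grpr, Cx3cl1 was 0.480, 0.418 and 0.456 CPM in mock cells and 0.305, 0.206 and 0.328 CPM with GRP, from 6 to 17 counts. All 3 GRP libraries lay below all 3 mock libraries, and the log2 fold change of -0.68 did not pass the test (SE 0.393, adjusted p = 1). The GRP effects themselves differed between lines in one fit of all 72 libraries. The effect in 1057 exceeded that in 1181-Grpr by 2.24 on the log2 scale (SE 0.64, adjusted p = 0.034, and 0.0378 without the 2 libraries at odds with their labels), and that in 1064 exceeded it by 2.13 (adjusted p = 0.0438). Against 1014-Grpr the difference was 2.25 (adjusted p = 0.0603). Across the 4 receptor-expressing lines the mean GRP effect on Cx3cl1 was 0.97 (adjusted p = 0.000294), just under the fold threshold. Ccl2 was the 1 member called in that mean (adjusted p = 0.00107, where 2.28% of genes were called), with no fold given because its mock libraries of 1181-Grpr were at 0. Each line counts once in that mean, although Ccl2 had only 3 counts in all in the GRP libraries of 1181-Grpr. Over the lines without receptor no member was called, where 1.09% of genes were with all libraries and 0% without the 2 at odds with their labels.

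Over all 72 libraries, with the mock mean of its line subtracted from each log2 CPM value, the genes with a pattern most like that of Cx3cl1 were Sema4c (Pearson r = 0.858), Atf6 (r = 0.836) and Slc39a6 (r = 0.833). The libraries share lines and treatments, so these are given as a description. The part of the Cx3cl1 promoter window before its first annotated exon was 79 bases, and none of the searched motifs was found in the 250 bases before its RefSeq start.

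The genes of the neutrophil attractants were counted in different lines. Cxcl1 (chr5:90891241-90893115, plus strand) in 1014-Grpr had 0, 1 and 2 counts in mock cells and 16, 35 and 24 counts with GRP (0.638, 1.15 and 0.533 CPM). It was thus close to the floor in every mock library and above it in every GRP library. The fitted log2 fold change was 4.28 (SE 0.632, adjusted p = 0.000377), and the ratio of the summed counts per counted read was 19.7 with a 95% exact interval of 6.50 to 97.8. Cxcl1 passed the filter of this line through its GRP libraries, which the p-value does not take into account. It was also called in fits where that group did not decide its inclusion, without a filter (adjusted p = 2.22e-06) and in 1 fit of all 72 libraries (adjusted p = 0.000453). In 1014-Ctrl the mock libraries had 3, 14 and 13 counts, the second of them from the library at odds with its label, and the GRP libraries 1, 0 and 4. The GRP effect in 1014-Grpr exceeded that in 1014-Ctrl by 6.93 on the log2 scale (adjusted p = 0.000171, 1 of 6 members called where 2.45% of all genes were), and by 6.56 (adjusted p = 0.000278) without the libraries at odds with their labels. As these counts lie near 0, the size of that difference depends on how the fit treats low counts, and it moved between 5.53 and 9.43 when replicates were left out. Part of it is the lower count in 1014-Ctrl with GRP, 5 against 30 in mock, of which 14 came from the library at odds with its label. Cx3cl1 was not called in the same comparison (1.33, adjusted p = 0.185, and 1.5, adjusted p = 0.217, without the doubtful libraries). With the replicate block it was (1.33, adjusted p = 0.00533, and 1.39, adjusted p = 0.0204, without them, where 3.75% of genes were called), although the numbers did not pair the GRP and mock libraries of 1014-Ctrl.

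Cxcl1 was also counted in the 1181 lines. In 1181-Ctrl it lay between 1.37 and 3.56 CPM over 12 libraries and in 1181-Grpr between 0.386 and 1.17 CPM over the 11 with a fitting label, and neither line changed with GRP beyond its spread (0.37, adjusted p = 1, and -0.16, adjusted p = 1). In 1057 it had at most 5 counts in any library.

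Cxcl2 (chr5:90903871-90905938, plus strand), which lies close to Cxcl1 and codes for a second CXCR2 ligand, had 4, 13 and 6 counts in 1014-Grpr with GRP and 1 count in its 3 mock libraries together. All 3 GRP libraries lay above all mock libraries, and the ratio was 18.1 (95% exact interval 2.95 to 748). Without the filter on low counts it was called in 1014-Grpr (log2 fold change 3.91, adjusted p = 0.0116), as were 2.44% of 27303 genes. Cxcl5, the third such ligand, had 1, 4 and 2 counts with GRP and 0 in the 9 other libraries of 1014-Grpr. In 1057, where Cxcl5 was well counted, it moved the other way, from 3.38, 3.59 and 3.28 CPM to 2.81, 2.07 and 1.99 CPM, without overlap. Its log2 fold change of -0.56 (SE 0.145, adjusted p = 0.00328) did not reach the fold threshold. In 1064 Cxcl5 had 10, 2 and 15 counts in mock cells and 1, 3 and 4 with GRP (log2 fold change -1.56, adjusted p = 0.443). Ccl20, the ligand of CCR6, had 3, 2 and 8 counts in 1057 with GRP against 3 in the mock libraries together, a ratio of 4.35 (95% exact interval 1.2 to 23.8) that was not called without the filter (adjusted p = 0.0899).

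The promoter windows of Cxcl1 and Cxcl2 are shown because both genes rose with GRP in 1014-Grpr and both held NF-kB matches at a similar distance from their starts. In Cxcl1 (chr5:90890995-90891240, plus strand, 246 bases) matches began at -89 and, on both strands of 1 site, at -71. In Cxcl2 (chr5:90903649-90903870, plus strand, 222 bases) they began at -97, on both strands, and at -78. Ccl20 held a match at -80. Such a match is a description of the letters and not of a site in use.
Cxcl1: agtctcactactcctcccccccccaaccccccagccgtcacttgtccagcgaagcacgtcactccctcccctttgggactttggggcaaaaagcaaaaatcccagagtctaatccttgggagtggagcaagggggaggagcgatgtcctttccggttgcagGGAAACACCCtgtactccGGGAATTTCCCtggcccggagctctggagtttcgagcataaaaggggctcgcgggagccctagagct
Cxcl2: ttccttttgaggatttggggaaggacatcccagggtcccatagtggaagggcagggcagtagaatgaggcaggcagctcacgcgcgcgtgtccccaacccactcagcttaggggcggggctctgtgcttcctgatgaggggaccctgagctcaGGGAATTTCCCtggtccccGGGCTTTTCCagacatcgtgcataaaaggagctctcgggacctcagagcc

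Cxcl12 was the member called lower in 1057, from 0.799, 0.897 and 1.16 CPM to 0.205, 0.266 and 0.353 CPM with GRP. The groups did not overlap, on 26 to 38 and 6 to 11 counts. Its log2 fold change was -1.75 (SE 0.306, adjusted p = 9.44e-05). On log2 TPM with a pseudocount of 1 the value was -0.30, under the fold threshold, and in 1 fit of all 72 libraries it was -1.77 with an adjusted p of 0.685, so that the call was lost in both. In 1064 the mock libraries had 4.91, 3.31 and 5.13 CPM and the GRP libraries 3.62, 1.76 and 6.34 CPM, which overlapped (-0.18, adjusted p = 0.908).

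Cxcl10 rose with GRP below the fold threshold in 1014-Grpr, from 15.8, 8.24 and 12.2 CPM to 24.8, 21.2 and 18.1 CPM (log2 fold change 0.84, SE 0.211, adjusted p = 0.0105), without overlap. In 1057 it lay between 0.402 and 1.01 CPM in mock cells and between 0.964 and 1.75 CPM with GRP, a log2 fold change of 0.79 (SE 0.292, adjusted p = 0.0309) with 1 library of each group overlapping. In 1064 each pair fell, from 23.9 to 4.09, from 0.320 to 0.207 and from 1.56 to 1.16 CPM. The unpaired log2 fold change was -2.24 (SE 1.67, adjusted p = 0.492). With the replicate block it was -1.86 (SE 0.399, adjusted p = 0.00367) and was called, and the first pair fell by far the most. Irf1, an interferon-response transcription factor, fell in the same libraries without the block (-1.64, SE 0.306, adjusted p = 0.0149), the only gene of its list of 10 called there.

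RC given together with GRP lowered part of these responses. In 1014-Grpr, Cxcl1 fell from 16, 35 and 24 counts with GRP to 1, 4 and 4 counts with both agents, without overlap. Its log2 fold change was -2.57 (SE 0.523, adjusted p = 0.00743), where 1.73% of all genes were called. Cxcl1 again entered the test through its GRP libraries, and without the filter it was called as well (-2.58, adjusted p = 0.00143). The call was lost without replicate 1 (-2.32, adjusted p = 0.0754) or replicate 2 (-2.40, adjusted p = 0.13). Cx3cl1 went from 2.99, 3.28 and 3.57 to 2.27, 2.14 and 2.74 CPM in 1014-Grpr, without overlap (-0.48, SE 0.162, adjusted p = 0.0761, and 0.0184 with the replicate block).

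In 1057 none of the 5 members passed the fold threshold between GRP+RC and GRP, where 1.02% of genes were called, yet 4 had an adjusted p under 0.05, as had 24.7% of all genes. Ccl2 was 1.49, 1.93 and 1.54 CPM with both agents, below every GRP library and above every mock library (-0.60, SE 0.155, adjusted p = 0.00789). Cx3cl1 was 20.2, 19.5 and 18.5 CPM, likewise between the groups (-0.44, SE 0.0592, adjusted p = 2.05e-05). Cxcl5 moved back from 1.99 to 2.81 CPM with GRP to 3.62, 3.74 and 3.32 CPM with both agents (0.63, SE 0.144, adjusted p = 0.00338), which did not differ from mock (0.07, 95% interval -0.20 to 0.33). Cxcl12 was 0.409, 0.507 and 0.753 CPM, above every GRP library and below every mock library (0.96, SE 0.343, adjusted p = 0.0491). In 1064 no member passed the test between GRP+RC and GRP (adjusted p from 0.782 to 0.999), where 0.0145% of genes were called. With the replicate block the adjusted p lay between 0.0947 and 0.971, where 1.93% of genes were called. The unpaired log2 fold change was -0.82 for Ccl2 (95% interval -2.03 to 0.39) and -0.65 for Cx3cl1 (-1.92 to 0.61). These intervals cover a fall as well as no change. Ccl7, which did not pass the filter, had 20 counts with GRP and 3 with both agents. Over the 4 receptor-expressing lines together, Ccl2 was called lower with both agents than with GRP alone (adjusted p = 0.0226, 0.494% of genes), a call that was lost when any replicate was left out. No fold is given for it, because the libraries with both agents were at 0 in 1181-Grpr and 1014-Grpr. With GRP these lines had only 3 and 11 counts in all. In 1057 and 1064, where Ccl2 was well counted, the change stayed under the fold threshold.

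Against mock, cells given both agents still had more Ccl2 (log2 fold change 1.97, SE 0.215, adjusted p = 6.12e-07) and Cx3cl1 (1.15, SE 0.0674, adjusted p = 1.61e-10) in 1057, the 2 members called of 5 where 3.47% of genes were. In 1014-Grpr Cx3cl1 was called in that comparison (1.10, SE 0.177, adjusted p = 0.0164, and 0.189% of genes), but not when any replicate was left out (adjusted p from 0.172 to 0.234).

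RC alone also moved chemokines in 1057. Ccl2 was 0.917, 0.979 and 0.814 CPM with RC, above all mock libraries (0.399 to 0.433 CPM) and below all those with GRP. The log2 fold change against mock was 1.10 (SE 0.242, adjusted p = 0.00277), the 1 call among 5 members where 0.888% of genes were called. This call was lost in 3 of 9 alternatives, on TPM with either pseudocount and in 1 fit of all 72 libraries. Over the alternatives the log2 fold change lay between 0.65 and 1.18, with adjusted p up to 0.849. Cx3cl1 was 13.4, 13.7 and 14.4 CPM, also between mock and GRP, with a log2 fold change of 0.65 (SE 0.0705, adjusted p = 2.41e-06) that stayed under the fold threshold. Cxcl5, Cxcl10 and Cxcl12 did not change beyond their spread (adjusted p from 0.631 to 0.960). No member was called with RC alone in the other lines, where 0% of genes were called by edgeR, none of the members had an unadjusted p under 0.05, and DESeq2 called no member. In 1064 the log2 fold changes were 0.97 for Ccl2 (95% interval -0.28 to 2.22) and 0.57 for Cx3cl1 (-0.71 to 1.84). These wide intervals cover no change as well as the changes seen in 1057. For Cx3cl1 in 1014-Grpr, the RC libraries had 1.33, 1.61 and 1.25 CPM, above the 3 mock libraries (0.33, 95% interval -0.03 to 0.70, adjusted p = 1).

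In the lines without receptor the tested members stayed within their spread when GRP was given. In 1014-Ctrl, without the library at odds with its label, the log2 fold change of Cx3cl1 was 0.07 (SE 0.302, adjusted p = 1) and that of Cxcl10 was -0.17 (SE 0.305, adjusted p = 1), and with that library they were 0.24 (adjusted p = 0.738) and -0.42 (adjusted p = 0.698). In 1181-Ctrl the 95% interval was -1.12 to 0.54 for Cx3cl1 and -0.41 to 1.15 for Cxcl1. The GRP effect on Cx3cl1 in 1057 did not pass the test of its difference from that in 1181-Ctrl (1.86, adjusted p = 0.0688) or 1014-Ctrl (1.33, adjusted p = 0.151).

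Of all genes tested, 6.46% in 1057, 2.32% in 1064 and 4.01% in 1014-Grpr were called with GRP, and 4.96%, 1.52% and 3.16% were called higher, which is the background for the lists that follow. Of 26 other chemokine ligands, 5 could be tested in 1057. Ccl3, a macrophage attractant, was called higher there with GRP (0.0102 ± 0.0177 to 0.586 ± 0.135 CPM, SD, n = 3 each, from 1 to 55 counts in all). Ccl3 passed the filter through libraries given GRP, alone or with RC, which the call does not take into account. It was also called higher than mock with RC alone (log2 fold change 3.44) and with both agents (5.65). None of 4 tested in 1064 and 6 in 1014-Grpr was called. Of 23 chemokine receptors, 6 could be tested in 1057. Cxcr3, the receptor of CXCL10, rose from 22.9 ± 1.45 to 74.0 ± 4.09 CPM (log2 fold change 1.72, SE 0.0458, adjusted p = 1.27e-15), Ccr1 rose (3.97, SE 0.527, adjusted p = 4.13e-06) and Ackr4, a scavenging receptor, fell by 1.04 on the log2 scale (SE 0.0598, adjusted p = 5.25e-11). No receptor was called in 1064 or 1014-Grpr.

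Among 10 genes of chemokine shedding and mRNA decay, Zc3h12a, whose product regnase-1 degrades cytokine mRNAs, was called higher with GRP in 1057 (1.25, SE 0.153), 1064 (1.98, SE 0.338) and 1014-Grpr (1.02, SE 0.115), with adjusted p of 1.54e-06, 0.0112 and 5.34e-05. Zfp36, which codes for the mRNA-decay factor tristetraprolin, was called in 1014-Grpr only (1.48, adjusted p = 5.13e-05). Of 15 NF-kB subunits and feedback genes, 1 of 12 tested was called higher in 1057 (Nfkbiz), 2 of 13 in 1064 (Relb and Tnfaip3) and 5 of 14 in 1014-Grpr (Nfkb2, Relb, Nfkbie, Tnfaip3 and Bcl3), and none lower. Tnfaip3, the feedback inhibitor A20, rose from 2.5 ± 0.153 to 11.8 ± 2.83 CPM in 1014-Grpr (2.26, SE 0.211, adjusted p = 1.26e-05). The median log2 fold change of this list was 0.30, 0.36 and 0.79 in the 3 lines. In 1181-Grpr and both lines without receptor no gene of these lists was called, and the list medians lay between -0.34 and 0.06.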

How the data were processed

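Poly(A) RNA was sequenced in 72 libraries (6 mouse melanoma lines, 4 treatments, 3 replicates) with a stranded kit, and the authors aligned the read pairs with STAR (GRCm38, GENCODE genes). The deposited counts are reads per gene without normalization, 19512882 to 46862053 per library, so that 3 counts equal 0.064 to 0.154 CPM. The authors also deposited TPM, whose 12 columns of line 1057 use a decimal comma (the method is not given in the sources used here). The study's methods mention a Combat batch correction where applicable, without saying whether it was used for these tables.

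Counts were filtered with filterByExpr, scaled by TMM and tested with edgeR 4.0.16 (quasi-likelihood F-test, R 4.3.3) in 1 fit per line, in 1 fit of 72 libraries for means over lines and differences between lines, and in 1 fit of 18 mock libraries for resting lines. Calls required a p of less than 0.05 after Benjamini-Hochberg adjustment and a log2 fold change beyond 1 in either direction. Alternatives were DESeq2 1.42.0, limma 3.58.1 on log2 TPM with a pseudocount of 1 or 0.1, no filter, the adjusted p alone, the replicate number as a block, each replicate left out, 1 fit of all libraries, and leaving out the libraries at odds with their labels. Ratios of low counts carry exact conditional 95% intervals for counting error. The steps were tested on simulated data.

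Replicate numbers come from the labels, which do not say what they share. Deviations of same-numbered libraries correlated above 0.1 in every pair in all comparisons of 1064 (r from 0.479 to 0.684), 1014-Grpr (0.248 to 0.367) and 1181-Ctrl (0.617 to 0.796), and in 1181-Grpr for GRP and for RC against mock (0.349 to 0.646), but not in 1057.

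The members and the lists of other ligands, receptors, shedding and decay genes, NF-kB genes, interferon-response genes and cell-type markers were chosen with earlier results of these data known. Of the other lists, genes were named where called with GRP in at least 2 lines or where 5 or fewer of a list were called in a line, and the 3 genes most like a member were given where it was called with GRP in at least 2 lines.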

Additional observations from a re-analysis of the deposited data

Results flagged for a closer look

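The GRP effect on Cxcl1 differed between the transfected 1014 derivatives, being higher in 1014-Grpr than in 1014-Ctrl by 6.93 on the log2 scale (edgeR adjusted p = 0.000171). The counts behind it are low, with 3 in the mock and 75 in the GRP libraries of 1014-Grpr, and 30 and 5 in those of 1014-Ctrl, 14 of the 30 from the library at odds with its label. Leaving out replicates moved the value between 5.53 and 9.43, and without the libraries at odds with their labels it was 6.56 (adjusted p = 0.000278).

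The GRP effect on Cx3cl1 differed between receptor-expressing lines, being higher in 1057 than in 1181-Grpr by 2.24 on the log2 scale (edgeR adjusted p = 0.034). In 1014-Grpr all 3 GRP libraries lay above the mock libraries and in 1181-Grpr all 3 lay below them, and the effects were apart by 2.25 (adjusted p = 0.0603), which did not pass the threshold.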

How the results depend on the processing

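Of the counts of called members under the alternatives, 293 stayed within 1.5 times their reported value and 41 did not, and of the values of single genes 118 kept their direction and their side of the threshold, 21 kept the direction only and none reversed. The 293 include counts of 0 that stayed at 0, many from comparisons where edgeR called 0% of all genes. They are therefore no measure of how stable the calls were. With the adjusted p alone, 5 members passed in 1057 for GRP against mock, where 52.6% of all genes tested passed. In that line 4 passed for GRP+RC against GRP (24.7% of genes) and 2 for RC against mock (24.3%). In the mean GRP effect over the receptor-expressing lines 2 passed (25.9%). On TPM with a pseudocount of 1 the counts were 1 for GRP+RC against mock and 0 for RC against mock in 1057, and 1, 0 and 0 in 1014-Grpr for GRP against mock, GRP+RC against GRP and GRP+RC against mock. With a pseudocount of 0.1 they were 0 for RC against mock in 1057 and 0 for GRP+RC against mock in 1014-Grpr. DESeq2 called 1 member in 1064 for GRP against mock, 0 in 1014-Grpr for GRP+RC against GRP (it gave Cxcl1 no adjusted p), 1 in the mean over the control lines, 2 for the difference between the 1014 lines and 1 between the resting 1014 lines. With the replicate block 3 members were called in 1064 for GRP against mock, 1 in the mean over the control lines and 3 for the difference between the 1014 lines. The call in the control lines was Cxcl12, which among their 1014-Ctrl libraries was counted only in the one at odds with its label. In 1 fit of all 72 libraries the counts were 0 for RC against mock in 1057, 2 for GRP against mock in 1064, 0 for GRP+RC against mock in 1014-Grpr, and 1 each for GRP, GRP+RC and RC against mock in 1014-Ctrl. Without the libraries at odds with their labels and with the block, 2 members were called for the difference between the 1014 lines and 0 for GRP+RC against GRP over the receptor-expressing lines. Leaving out each replicate gave 0 to 1 in 1064 and 1 to 2 in the mean over receptor-expressing lines for GRP against mock, 0 to 1 in 1014-Grpr and 0 to 0 in that mean for GRP+RC against GRP, 0 to 0 in 1014-Grpr for GRP+RC against mock, 0 to 3 between the resting 1181-Ctrl and 1014-Ctrl, and 0 to 1 between the resting 1181 lines. The cause of these changes was not tested. The block changed no other count of called members by over 1.5 times.

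Cxcl2, Cxcl16, Ccl7 and Ccl20 did not pass the filter on low counts in any line and were tested only without it, and most of their libraries held 3 counts or fewer.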
